A study of Mus musculus with 11 samples.

Results

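A set of 10 receptors of the T cell surface was followed in mouse terminal ileum: Cd6, Cd5, Cd2, Cd27, Cd28, Cd7, Cd96, Cd160, Lag3 and Thy1. Their probes were found by the symbols of the array, which are in capitals (CD6, CD5, CD2, CD27, CD28, CD7, CD96, CD160, LAG3 and THY1). Probes for 9 of the 10 genes were found, 14 probes of the 25697 on the array, and Cd5 was not analysed here. The array lists 18138 symbols in all. These receptors sit on the plasma membrane of T cells and tune the signal of the T cell receptor. Cd28 and Cd27 add a costimulatory signal on meeting ligands on antigen-presenting cells, Cd2 and Cd6 also hold the contact between the cells, and Cd96, Cd160 and Lag3 are known mainly as restraints. In the small intestine many T cells lie between epithelial cells, and Cd160 and Thy1 are used there to tell lymphocyte subsets apart.

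The tested animals were naive SKG mice, a strain with a BALB/c background whose Zap70 kinase carries a mutation that weakens T cell receptor signals. The control animals were naive BALBc mice, and both strains were 8 to 12 weeks old. The values below come from 5 SKG animals (replicates 4 to 8, all in batch 3) and 3 BALBc animals (replicates 1 and 2 in batch 2, replicate 3 in batch 3), each a mouse with an array of its own. The sex of the animals, and whether the strains were littermates or housed together, was not stated in the labels. RNA came from whole ileum, so fewer T cells and less receptor RNA per T cell cannot be told apart.

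Each of the 8 arrays had 12445 to 14076 probes above background at a detection p under 0.05. Median raw signals were 98.5 to 105.6 on the 5 SKG arrays of batch 3, 187.5 and 163.0 on the 2 BALBc arrays of batch 2 and 103.7 on the BALBc array of batch 3. SKG replicate 6 stood slightly apart, with rank correlations of 0.863 to 0.871 with the other SKG arrays, against 0.886 to 0.893 among those. The arrays of batch 1 (3 SKG animals) were left out because their signals did not follow the probe names: their rank correlations with the 8 arrays were 0.0768 to 0.0966. Epithelial markers were bright in both strains, with a mean log2 signal of 12.7 to 12.8 in SKG and 12.7 to 12.8 in BALBc. Slc10a2, the bile acid transporter of the ileal epithelium, was not above background on any array, while Fabp6, the ileal bile acid binding protein, averaged 13.51 ± 0.10 in SKG (SD, n = 5) and 12.95 ± 0.52 in BALBc (SD, n = 3).

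Cd6 was the one receptor of the set called lower in SKG ileum (limma adjusted p under 0.05). Its fitted log2 differences were −2.97, −2.97 and −2.80 on its 3 measurable probes. The other measurable receptors were lower by the fit too, but none of them was called. Cd6 encodes a scavenger receptor cysteine-rich protein that binds ALCAM on other cells and docks signalling adaptors of the T cell receptor pathway. On probe 1030278 the normalised log2 signals of SKG replicates 4 to 8 were 4.91, 5.43, 6.15, 4.40 and 4.39, against 7.07, 6.83 and 8.39 in BALBc replicates 1 to 3. Every SKG value lay below every BALBc value. Probe 1440681 gave 4.45, 5.35, 6.01, 4.49 and 4.48 in SKG and 7.30, 6.59 and 8.26 in BALBc. Probe 1170246 gave 4.27, 5.25, 4.89, 5.08 and 4.75 in SKG and 6.98, 6.50 and 7.96 in BALBc. The strains were separated on these probes too, and the 2 BALBc animals of batch 2 stood above all SKG animals together with the BALBc animal of batch 3. The 3 probes share the same animals and the same transcript, so they are not independent measurements.

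The fitted difference, SKG minus BALBc with batch as a random block, was −2.97 (SE 0.53) for probe 1030278, −2.97 (SE 0.52) for probe 1440681 and −2.80 (SE 0.36) for probe 1170246. For probe 1030278 this is a 7.83-fold lower signal in SKG, with a 95% interval of −4.14 to −1.80 on the log2 scale. The limma adjusted p over all 13775 kept probes was 0.0405, 0.0386 and 0.00684 for these probes. An exact permutation test over the 8 animals gave p = 0.0357 for each of the 3 (two-sided), the smallest that 56 splits allow. That p follows from the complete separation already described, takes no account of batch, and is not further evidence. Among all kept probes 0.254% were called lower in SKG (35) and 0.319% higher (44). The strains did not overlap, in 5.25% of kept probes with SKG lower and in 10.0% with SKG higher. Within batch 3, where the raw signals can be read side by side, probe 1030278 had raw signals of 98.3 to 112.9 in SKG, with a standard error between beads of at most 3.71, and 294.7 in the BALBc animal. That probe differed by −3.34 within batch 3 and by −1.89 against the 2 BALBc animals of batch 2. Fitted in batch 3 alone, with 1 BALBc animal assumed to vary like the SKG animals, 1 receptor probe was called (1170246, limma adjusted p = 0.0217), with 0.189% of kept probes called lower.

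The size of the Cd6 difference rested on the background floor. In SKG the probes were above background on 3 (1030278), 2 (1440681) and 2 (1170246) of 5 arrays, and on all 3 BALBc arrays. Probes 1440681 and 1170246 thus reached the 3 arrays needed to be tested only with the BALBc arrays, where they were higher. With no detection filter only probe 1170246 was called (limma adjusted p = 0.0368). Requiring detection on all 8 arrays left no Cd6 probe to test. Without background correction the differences were −1.27, −1.23 and −1.08, still past the threshold. Leaving out any 1 of SKG replicates 4, 5, 7 and 8 or BALBc replicates 1 and 2 took the calls from probes 1030278 (−3.04 to −2.80, adjusted p 0.0745 to 0.0989) and 1440681 (−3.07 to −2.84, adjusted p 0.0619 to 0.1), while probe 1170246 was called under each of its 17 alternatives (adjusted p 0.000596 to 0.0368). The fourth Cd6 probe, 630132, stayed at background in both strains (lowest detection p 0.248), with log2 signals of 4.25 to 4.47 in SKG and 4.39 to 4.48 in BALBc.

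**Figure D1:**
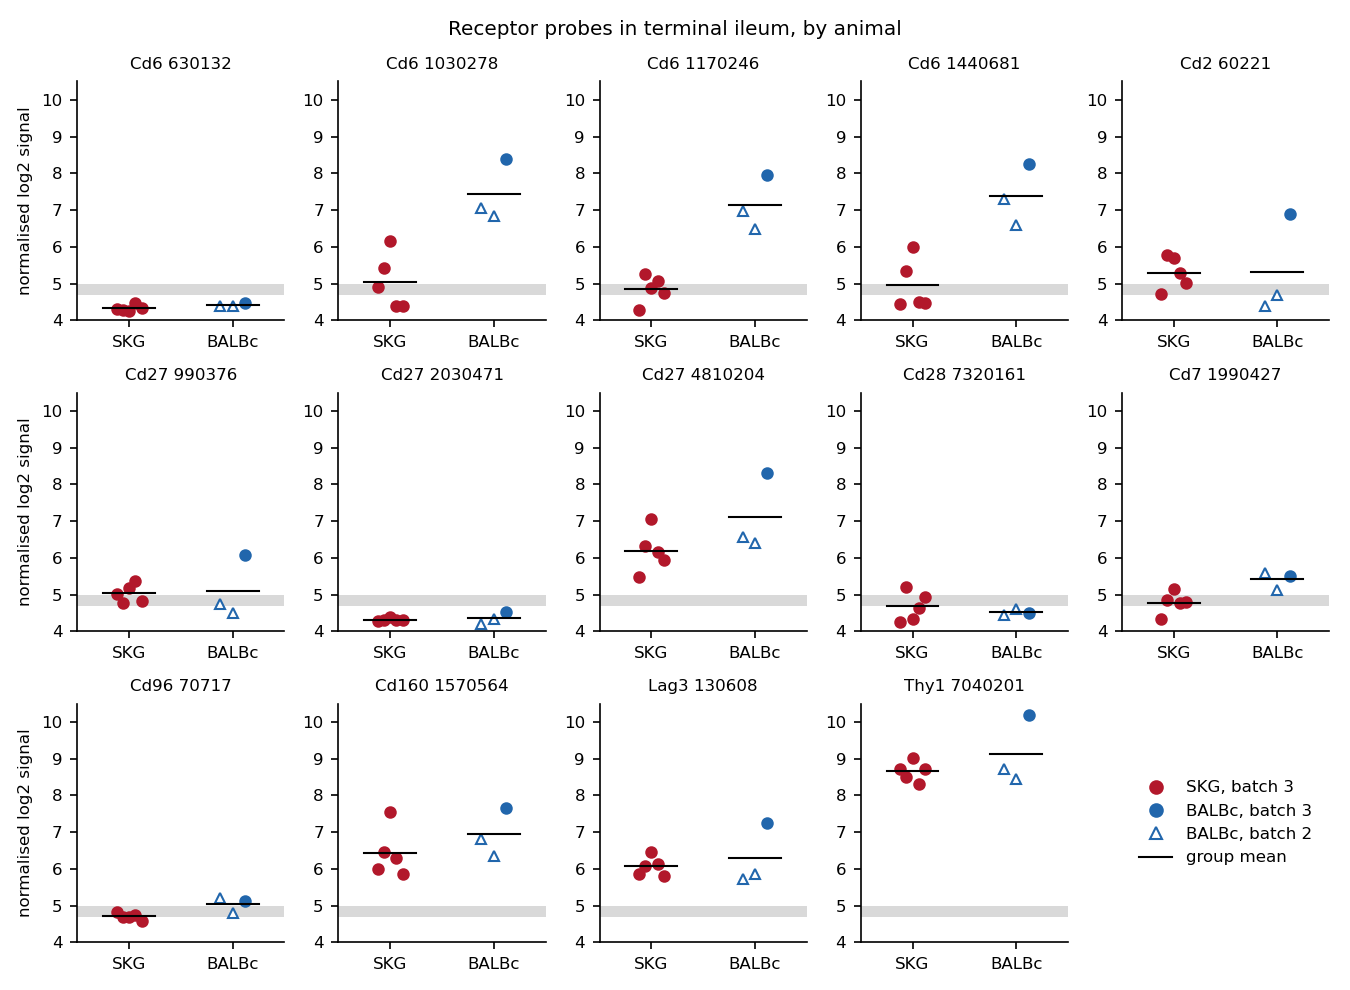
Normalised log2 signal (vertical axis) of the 14 receptor probes in SKG (left, 5 animals) and BALBc (right, 3 animals). Circles are batch 3, open triangles batch 2, black bars group means, and the grey band marks the lowest signals above background on the 8 arrays (4.68 to 4.98). On 3 of the 4 Cd6 probes all SKG animals lie below all BALBc animals, and for Cd2, Cd27, Lag3 and Thy1 the BALBc animal of batch 3 stands apart from both BALBc animals of batch 2.

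Cd2, an adhesion receptor that binds Cd48 in the mouse, did not separate the strains. Its log2 signals were 4.71, 5.77, 5.70, 5.29 and 5.03 in SKG replicates 4 to 8 and 4.38, 4.69 and 6.89 in BALBc replicates 1 to 3. The SKG animals lay between the 2 BALBc animals of batch 2, which were low, and the BALBc animal of batch 3, which was high. The fitted difference of −0.98 (SE 0.49, limma adjusted p = 0.414) combined −1.59 within batch 3 with 0.77 against the BALBc animals of batch 2. The ligand Cd48 was above background on 0 of 5 SKG arrays and 1 of 3 BALBc arrays.

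Of the costimulatory pair, Cd27 could be measured and Cd28 could not. Cd27 belongs to the tumour necrosis factor receptor family and supports the survival of activated T cells. On its brightest probe, 4810204, log2 signals were 5.49, 6.33, 7.06, 6.16 and 5.93 in SKG and 6.58, 6.41 and 8.31 in BALBc. Of these SKG animals 4 lay below all BALBc animals, and SKG replicate 6 lay above both BALBc animals of batch 2. The difference was −1.65 (95% interval −2.70 to −0.59) and did not pass over all probes (limma adjusted p = 0.17). Its second probe, 990376, gave 5.04 ± 0.25 in SKG (SD, n = 5) and 5.11 ± 0.86 in BALBc (SD, n = 3), with a difference of −0.67 (SE 0.33, limma adjusted p = 0.418). The third, 2030471, stayed at background on all 8 arrays, as did the ligand gene Cd70. Cd28, the receptor for Cd80 and Cd86, was above background on 2 of 5 SKG arrays and on 0 of 3 BALBc arrays, which is under the 3 arrays needed to be tested. Its log2 signals were 4.26, 5.22, 4.34, 4.65 and 4.93 in SKG and 4.45, 4.62 and 4.51 in BALBc, so the strains overlapped near the floor. Of its ligands Cd80 was not above background on any array. Cd86 was above it on all 8 arrays with 2 of its 3 probes, which differed by −0.48 and −0.55 (limma adjusted p = 0.551 and 0.506).

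Cd7 and Cd96 lay close to background. Cd7, an immunoglobulin family receptor of T and natural killer cells, had log2 signals of 4.35, 4.85, 5.15, 4.76 and 4.79 in SKG and 5.60, 5.14 and 5.52 in BALBc. Only SKG replicate 6 of the 5 SKG arrays was above background, and it reached the lowest BALBc animal. The difference was −0.71 (SE 0.28, limma adjusted p = 0.311), with −0.74 within batch 3 and −0.59 against batch 2. Sectm1b, whose human relative encodes a CD7 ligand, differed by 0.01 (SE 0.25, limma adjusted p = 0.99). Cd96, a receptor for the adhesion protein Pvr, had 4.83, 4.70, 4.69, 4.75 and 4.57 in SKG and 5.21, 4.80 and 5.13 in BALBc. It was above background on 0 of 5 SKG arrays and on all 3 BALBc arrays, so the detection filter largely fixed its direction. By plain means it was at least 1.12-fold lower in SKG (BALBc mean over, per SKG array, the higher of its own signal and the lowest signal above background), and the fit did not call it (limma adjusted p = 0.506). Pvr was above background on all 8 arrays with 2 of its 3 probes, which differed by 0.90 (SE 0.42) and 0.47 (SE 0.31), neither called (limma adjusted p = 0.387 and 0.573).

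Cd160, a receptor of intraepithelial and natural killer lymphocytes that binds the herpesvirus entry mediator Tnfrsf14, overlapped between the strains. Its log2 signals were 6.00, 6.47, 7.55, 6.30 and 5.87 in SKG and 6.81, 6.36 and 7.65 in BALBc. SKG replicate 6 nearly reached the highest BALBc animal, and SKG replicate 5 lay between both BALBc animals of batch 2. The difference was −0.94 (95% interval −1.99 to 0.11, limma adjusted p = 0.431), and Tnfrsf14 differed by −0.04 (SE 0.52). Because the study names Runx3, a factor of the CD8 T cell lineage, the promoter windows of the receptors were searched for the RUNX core TGTGGT on both strands (ACCACA on the other). The RefSeq table (GRCm38.p6, 250 bases before to 50 after a gene start) held 5 windows for 4 of the 10 genes: Cd160 (2 starts), Cd96, Cd27 and Cd5. The core was present in the windows of Cd160 and Cd96, shown here on the minus strand with the core in capitals, and not in those of Cd27 and Cd5. It occurs in 16.8% of the 32851 windows of the table, and a match is only a match of letters.
Cd160, chr3:96829302-96829601: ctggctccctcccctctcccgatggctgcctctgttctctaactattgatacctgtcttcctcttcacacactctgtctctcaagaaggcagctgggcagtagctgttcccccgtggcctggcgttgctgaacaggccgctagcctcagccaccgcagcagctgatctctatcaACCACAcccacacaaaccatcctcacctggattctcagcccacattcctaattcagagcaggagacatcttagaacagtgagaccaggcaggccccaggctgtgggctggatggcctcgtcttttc
Cd160, second start, chr3:96814472-96814771: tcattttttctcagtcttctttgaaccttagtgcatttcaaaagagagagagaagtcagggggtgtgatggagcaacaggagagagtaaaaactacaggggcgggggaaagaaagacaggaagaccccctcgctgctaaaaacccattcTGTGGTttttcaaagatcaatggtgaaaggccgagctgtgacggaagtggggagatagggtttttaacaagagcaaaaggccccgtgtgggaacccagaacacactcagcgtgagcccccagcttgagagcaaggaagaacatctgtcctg
Cd96, chr16:46120199-46120498: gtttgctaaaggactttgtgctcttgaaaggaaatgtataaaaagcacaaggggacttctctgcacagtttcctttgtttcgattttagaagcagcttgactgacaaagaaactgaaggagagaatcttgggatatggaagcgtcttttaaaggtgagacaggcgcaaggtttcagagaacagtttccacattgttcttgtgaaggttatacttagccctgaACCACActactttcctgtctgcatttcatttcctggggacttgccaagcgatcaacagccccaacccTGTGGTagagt

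Lag3, an inhibitory receptor that binds major histocompatibility complex class II, had log2 signals of 5.86, 6.09, 6.47, 6.14 and 5.82 in SKG and 5.72, 5.87 and 7.26 in BALBc. The 2 BALBc animals of batch 2 lay within or below the SKG range, and the BALBc animal of batch 3 lay above it. The fitted difference of −0.81 (95% interval −1.54 to −0.07, limma adjusted p = 0.335) combined −1.18 within batch 3 with 0.28 against batch 2. The class II genes, whose proteins Lag3 binds, differed by more, although none passed. H2-Ab1 averaged 8.12 ± 1.30 in SKG (SD, n = 5) and 11.89 ± 0.46 in BALBc (SD, n = 3) on the probe with the smallest p, a difference of −3.50 (SE 0.80, limma adjusted p = 0.09). The other 2 H2-Ab1 probes, H2-Eb1 and H2-Aa differed by −2.67, −2.27, −1.95 and −2.23. Each was low in SKG against both BALBc batches, unlike Lag3 itself. Lgals3, a second ligand, differed by 0.17 (SE 0.27), and Fgl1 was above background on 1 of 5 SKG arrays and 0 of 3 BALBc arrays.

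Thy1, a lipid-anchored glycoprotein of mouse T cells that neurons and fibroblasts carry too, had log2 signals of 8.72, 8.50, 9.01, 8.32 and 8.73 in SKG and 8.72, 8.45 and 10.20 in BALBc. Both BALBc animals of batch 2 lay within the SKG range, and the BALBc animal of batch 3 lay above it. In raw signal the 5 SKG animals had 305.2 to 376.0 and that BALBc animal 789.9. The difference was −1.13 (95% interval −1.91 to −0.35, limma adjusted p = 0.205), with −1.54 within batch 3 and 0.07 against batch 2. Markers of the other Thy1 bearing cells were measured in the same RNA, and their part in the result was not tested. The mean log2 signal of 7 kept neuron probes was 5.63 to 6.17 in SKG and 6.04 to 6.48 in BALBc, with Snap25 not above background on any array. That of 7 kept fibroblast probes was 8.26 to 8.58 in SKG and 9.15 to 9.88 in BALBc. All 14 of these probes were lower in SKG by the fit, with medians of −0.41 and −0.75 and none called. At an unadjusted limma p under 0.05 were 1 neuron and 4 fibroblast probes, beside 1838 of all 13775 kept probes in either direction. Without BALBc replicate 3 the neuron median was 0.071, with 3 of 7 probes lower and 2 called lower, in a fit that called 16.4% of all kept probes lower.

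**Figure D2:**
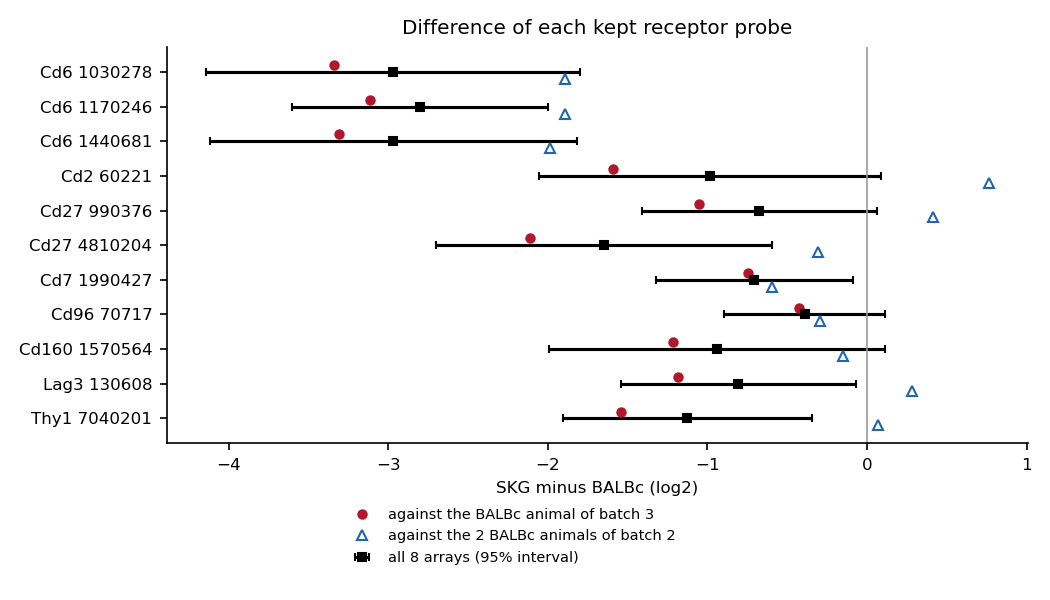
Difference SKG minus BALBc (log2, horizontal axis) of the 11 kept receptor probes: black squares with 95% intervals are the fit over 8 arrays, red circles the mean of the 5 SKG animals minus the BALBc animal of batch 3, and open triangles the same minus the mean of the 2 BALBc animals of batch 2. The 3 Cd6 probes lie at −3.34 to −1.89 against either batch, while Cd2, Lag3, Thy1 and Cd27 probe 990376 lie below 0 against batch 3 and above 0 against batch 2.

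Across the set, 11 of 14 probes (8 genes) passed the detection filter, which asked for detection (p under 0.05) on 3 or more arrays. All 11 were lower in SKG by the fit, with a median of −0.99 beside 0.01 for all kept probes, of which 49% were lower. This count is a description: Cd96, Cd7 and Cd6 probes 1170246 and 1440681 reached the 3 arrays of the filter only with the BALBc arrays, where they were higher. The BALBc animal of batch 3 lay above all 5 SKG animals on all 11, as it did for 21.3% of all kept probes, and it was the highest of the 8 arrays on 9 (16.5% of all kept probes). Against the 2 BALBc animals of batch 2, 7 of 11 were lower, and these 7 were lower against both batches (21.4% of all kept probes). The shared direction therefore rested on 1 BALBc animal for all receptors other than Cd6, Cd7, Cd96, Cd160 and Cd27 probe 4810204, and of these Cd160 and Cd27 differed from batch 2 by −0.15 and −0.30. Without BALBc replicate 3, where batch and strain cannot be told apart, the fit gave 0.77 for Cd2, 0.42 for Cd27 probe 990376, 0.28 for Lag3 and 0.07 for Thy1, and −1.99 to −1.89 for the Cd6 probes. The Cd6 probes were still called there, with 16.4% of all kept probes called lower. Without SKG replicate 6, 6 receptor probes were called lower, with 2.42% of all kept probes called lower in that fit. They were the 3 of Cd6 together with Cd27 probe 4810204 (−2.06, limma adjusted p = 0.0185), Cd160 (−1.33, 0.032) and Thy1 (−1.38, 0.031). SKG replicate 6 was the highest of the 5 SKG animals on 7 of the 11 probes, against 34.8% of all kept probes.

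The other genes of these pathways were taken from 3 lists. Of other costimulatory and inhibitory receptors and surface proteins of lymphocytes, 22 probes (17 of 33 genes on the array) were kept, and 18 were lower in SKG with a median of −0.48 (−0.19 with scaling to the 75th percentile). None was called by limma (8 lower at an unadjusted p under 0.05). Of all 13775 kept probes 1838 had such an unadjusted p, in either direction. The direction of this list turned without BALBc replicate 3, where 9 of 22 were lower (median 0.10), 5 called lower and 1 higher, and without SKG replicate 6 there were 4 calls, all lower. The smallest p-values were those of Cd52, a small glycoprotein of lymphocytes (−1.59, SE 0.42), Cd53, a leukocyte tetraspanin (−1.41, SE 0.41), and Cd200, the ligand of an inhibitory receptor of myeloid cells. Cd200 was above background on 0 of 5 SKG arrays and on all 3 BALBc arrays, so the detection filter fixed its direction, and by plain means it was at least 2.15-fold lower in SKG (limma adjusted p = 0.225). The receptors Crtam, Slamf1, Slamf6, Tnfrsf4, Tnfrsf8, Tnfrsf9, Cd200r1 and Cd244a were not above background on any array. Of the ligands, 14 of 24 kept probes were lower (median −0.24), none was called, and 7 were lower at an unadjusted p under 0.05. Without SKG replicate 6 the direction of the ligands turned, with 11 of 24 lower (median 0.05) and 1 called each way, and without BALBc replicate 3 there were 17 lower, of which 7 were called, and 1 called higher. Alcam, the ligand of Cd6, differed by −0.65 (SE 0.49, limma adjusted p = 0.62) and was above background on 1 of 5 SKG arrays and on all 3 BALBc arrays. Cdcp1, another reported ligand of Cd6 known from human cells, differed by 0.53 (SE 0.28, limma adjusted p = 0.458).

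Among adaptors and kinases at the receptor tails, 17 of 21 kept probes were lower (median −0.80, −0.48 with scaling to the 75th percentile). Of these 8 had an unadjusted limma p under 0.05, as had 1838 of all 13775 kept probes in either direction. Without BALBc replicate 3 the count was 13 lower (median −0.23), of which 5 were called, beside 16.4% of all kept probes called lower. Without SKG replicate 6 it was 17 lower, of which 9 were called, beside 2.42% of all kept probes called lower. Lck, the kinase that starts T cell receptor signalling, had 7.18 ± 0.53 in SKG (SD, n = 5) and 8.72 ± 0.34 in BALBc (SD, n = 3), a difference of −1.74 (SE 0.38, limma adjusted p = 0.0786). Lcp2, an adaptor that Cd6 also binds, was above background on 0 of 5 SKG arrays and on all 3 BALBc arrays (limma adjusted p = 0.0892), with its direction fixed by the filter, and by plain means it was at least 2.36-fold lower in SKG. Csnk2a1, a catalytic subunit of casein kinase 2, averaged 6.19 ± 0.33 in SKG (SD, n = 5) and 4.61 ± 0.08 in BALBc (SD, n = 3). It was above background on all 5 SKG arrays and on 0 of 3 BALBc arrays, so it passed the detection filter only through SKG and its direction was fixed. By plain means it was at least 2.65-fold higher in SKG, and the fit called it (limma adjusted p = 0.0347).

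Markers of T cells, the cells that carry these receptors, were read in the same RNA. All 8 kept T cell probes were lower in SKG (median −1.70), none was called, and all 8 had an unadjusted limma p under 0.05. Of all 13775 kept probes 1838 had such a p, in either direction. Without SKG replicate 6 there were 6 calls and without BALBc replicate 3 there were 6, with medians of −1.94 and −1.11. There were 3 with no batch term, 2 with scaling to the 75th percentile and 1 each with batch as a fixed term and cyclic loess. The shares of all kept probes called lower in these fits, in the same order, were 2.42%, 16.4%, 1.98%, 0.327%, 0.312% and 0.305%. The mean log2 signal of the T cell probes was 5.38 to 6.39 in SKG and 6.78 to 7.69 in BALBc, with no overlap. Cd8b1 was lowest by p (−2.73, SE 0.53, limma adjusted p = 0.0519), and Cd8a stayed at background on all 8 arrays. Of the 10 listed markers 3 (Lck, Lat and Cd247) also stand in the lists above. Markers of natural killer and innate lymphoid cells overlapped, at 6.76 to 7.83 in SKG and 7.10 to 7.60 in BALBc, with Ncr1, Eomes and Il22 not above background on any array. B cell markers overlapped too, at 5.59 to 6.43 in SKG and 5.08 to 6.80 in BALBc, and so did endothelial markers, at 6.11 to 6.66 in SKG and 5.78 to 6.77 in BALBc. Plasma cell markers (7.05 to 7.72 in SKG, 7.95 to 8.05 in BALBc) and macrophage and dendritic cell markers (6.22 to 6.52 in SKG, 7.12 to 7.33 in BALBc) did not overlap in their means. The plasma cell probes disagreed by the fit, with 4 lower and 2 higher in SKG (3 and 1 at an unadjusted limma p under 0.05). Their median was −0.78, and 0.24 for the 4 probes detected on all 8 arrays. All 9 macrophage and dendritic cell probes were lower. Smooth muscle markers lay at 10.0 to 10.682 in SKG and 10.694 to 11.5 in BALBc, so their means only just did not overlap. All 8 smooth muscle probes were lower by the fit (median −0.61), but without BALBc replicate 3 only 4 were (median 0.09). Both probes of 1 gene, Acta2, were called lower (−2.37 and −2.28, limma adjusted p = 0.0263 and 0.0438), and differed by −2.61 and −2.27 against batch 2. The part of these cell types in the receptor values was not tested.

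**Figure D3:**
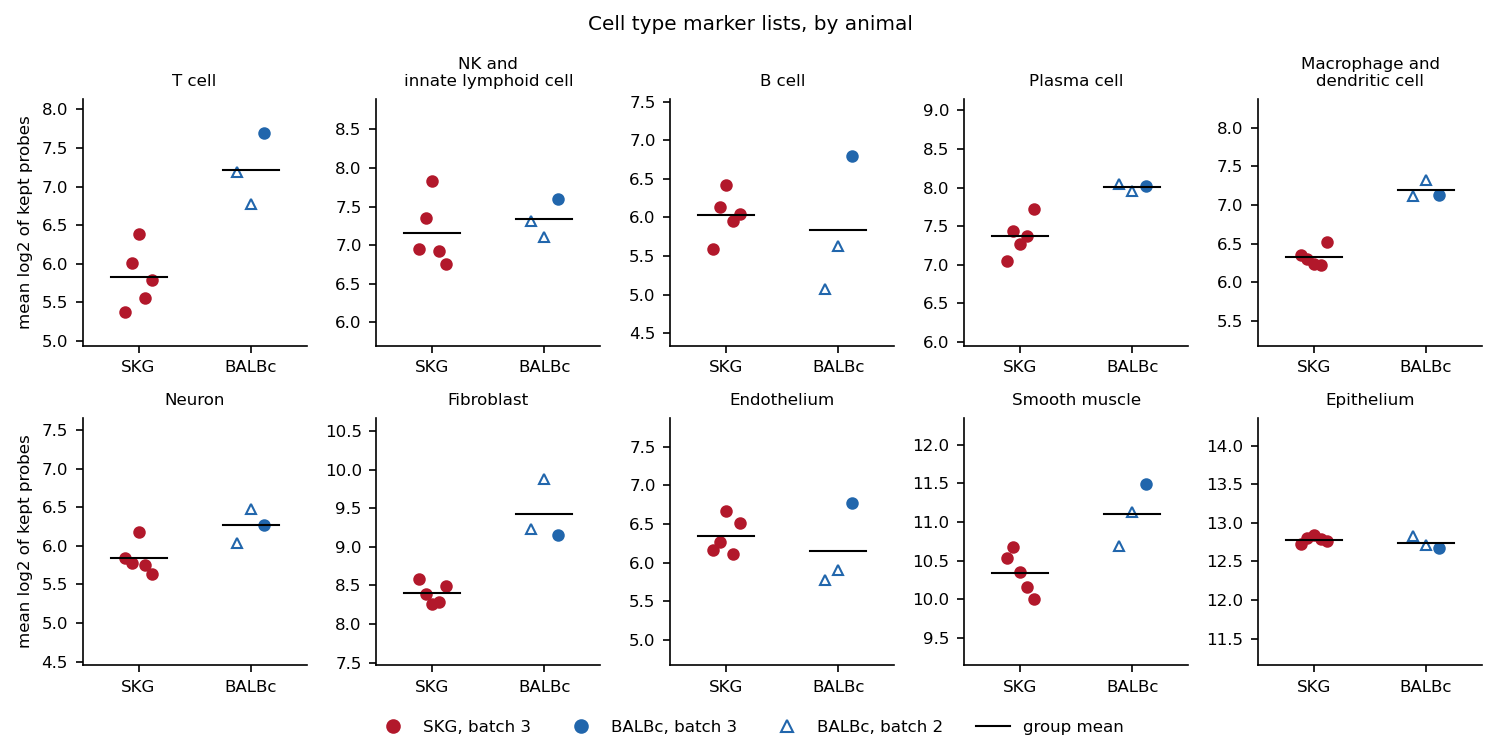
Mean normalised log2 signal of the kept probes of 10 cell type marker lists (vertical axis, each panel spanning the same number of log2 units) in SKG (left) and BALBc (right). Circles are batch 3, open triangles batch 2 and bars group means. T cell, plasma cell, macrophage, fibroblast and, narrowly, smooth muscle means are lower in all 5 SKG animals, and epithelial means are alike at 12.7 to 12.8.

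Set against the T cell markers of the same array, the receptors parted. The difference between a receptor probe and the mean of the 8 T cell marker probes removes any shift shared by a whole array, and this measure was chosen after seeing the data. The marker means were themselves lower in every SKG animal (5.38 to 6.39 in SKG, 6.78 to 7.69 in BALBc). A receptor that differed less than the markers therefore comes out higher in SKG by this measure. The share of all kept probes that separate in this way is not given here. For Cd6 probe 1030278 it was −1.41 to −0.24 in SKG and −0.12 to 0.70 in BALBc, so Cd6 was lower relative to these markers in every SKG animal. For Cd2 it was −0.77 to −0.24 in SKG and −2.81 to −0.80 in BALBc, and for Lag3 0.03 to 0.58 in SKG and −1.47 to −0.44 in BALBc. Cd160 had 0.08 to 1.16 in SKG and −0.42 to −0.04 in BALBc. These 3 receptors, and Cd7 and Cd96 near the floor, were higher relative to the T cell markers in all SKG animals, and Cd27 overlapped (0.12 to 0.67 in SKG, −0.60 to 0.61 in BALBc). Thy1 overlapped at its edge, with 2.50 to 3.34 in SKG and 1.53 to 2.50 in BALBc. A signal at the floor cannot fall further, which limits this comparison for Cd7 and Cd96 in SKG and for Cd2 in the BALBc animals of batch 2.

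**Figure D4:**
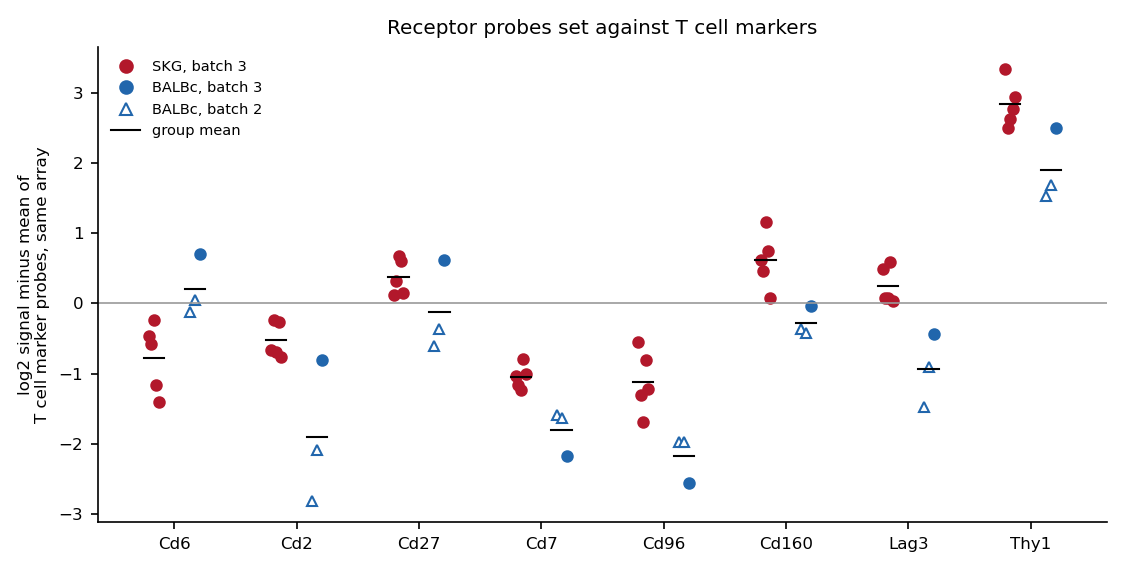
Log2 signal of the described probe of each receptor minus the mean of the 8 T cell marker probes on the same array (vertical axis), SKG left of BALBc for each gene. Circles are batch 3, open triangles batch 2 and bars group means. Cd6 is lower in SKG without overlap, and Cd2, Cd7, Cd96, Cd160 and Lag3 are higher in SKG without overlap. The markers themselves are lower in SKG, so a receptor that differs less than they do lies higher in SKG here.

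Cd6 and Cd5 are neighbours in the RefSeq table of GRCm38.p6, whose gene order was used without coordinates. Of the 8 protein-coding genes on each side of Cd6, 11 had a kept probe and 1 was called. Vps37c, on the far side of Cd5, differed by 0.61 (SE 0.28, limma adjusted p = 0.384), and Slc15a3, next to Cd6 on the other side, by −0.71 (SE 0.28, limma adjusted p = 0.309). Tmem109 differed by −0.99 (SE 0.24, limma adjusted p = 0.0977). Ms4a10, the outermost gene of the window, was the called one and rose by 1.26 (SE 0.23, limma adjusted p = 0.0405). No neighbour with a kept probe differed by as much as Cd6.

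**Figure D5:**
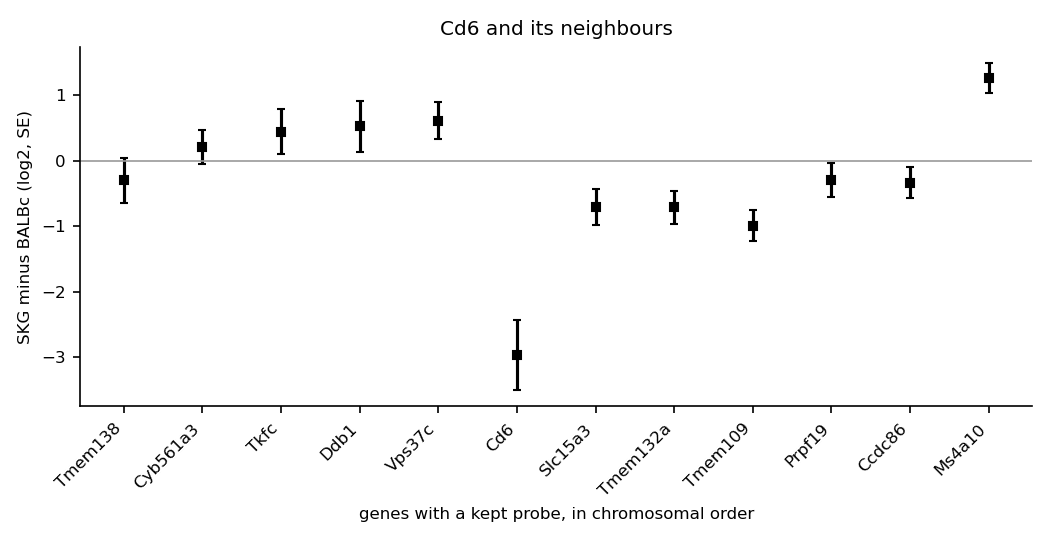
Difference SKG minus BALBc (log2, with its SE, vertical axis) of Cd6 and the genes with a kept probe among the 8 protein-coding genes on each side, in chromosomal order (horizontal axis, not to scale). Cd6 lies at −2.97, and the 11 neighbours lie between −0.99 and 1.26.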

How the data were processed

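Total RNA of terminal ileum was hybridised to 1-colour Illumina bead arrays, 1 array per mouse. Each deposited signal is a probe intensity, exported by the authors from GenomeStudio 1.9.0 and not normalised, per the file headers. The deposited detection column is a fraction, taken here as 1 minus the detection p. A deposited table of log2 values (5045 probes, column medians 0.00801 to 0.186 on the 8 arrays, centring not given in the sources used here) holds none of the receptor probes and served as an alternative for the count over all probes. Groups, replicates and batches follow the sample descriptions. The 3 arrays of batch 1 were left out because their bead numbers per probe were unrelated to those of the rest (r = 0.00568, against 0.473 between batches 2 and 3).

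Signals of the other 8 arrays were background-corrected with normexp from detection p (offset 16), quantile normalised and log2 transformed (neqc, limma 3.58.1, statmod 1.5.0, R 4.3.3). Kept were the 13775 probes detected (p under 0.05) on 3 or more arrays. SKG and BALBc were compared with limma, two-sided, with batch as a random block (consensus correlation 0.545) and Benjamini-Hochberg adjustment over all kept probes, called at 0.05. The fitted differences, SKG minus BALBc, weigh the batches, so they are not differences of plain means. The fit was tested on simulated data, where the correlation of only 2 batches was estimated too low, so p-values may be somewhat too small. The number of arrays limits the precision.

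All 14 probes of the receptors are accounted for, and a gene with several kept probes is described by the brightest. From each list the called genes and the 3 genes with the smallest p were named, and the receptors' direct ligands, the genes next to Cd6 and the genes not above background were added after their values were seen. The receptors and lists were chosen with earlier results of these data known. Names were matched to GRCm38.p6, with 14309 of 18138 symbols matched directly and 2886 by an older name. Each animal is 1 sample, so p-values measure the spread between these animals. Alternatives changed the batch term, background correction, scaling, detection filter, variance model and the animals.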

Additional observations from a re-analysis of the deposited data

How the results depend on the processing

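No paired analysis was possible because the SKG animals (replicates 4 to 8) and the BALBc animals (replicates 1 to 3) are separate mice, and the labels name no pairs. Over all probes 79 were called, and the count was 701 with no batch term, 32 in batch 3 alone, 147 with scaling to the 75th percentile, 124 with no detection filter, and 29 to 5209 when 1 animal was left out. The highest, 5209, came without BALBc replicate 3, where strain and batch cannot be told apart, and 789 came without SKG replicate 6. Leaving out SKG replicates 4, 5, 7 or 8 gave 30, 43, 31 and 35 calls, and BALBc replicates 1 or 2 gave 38 and 29. The calls were 55.7% higher in SKG, against 69.4% with scaling to the 75th percentile (102 higher, 45 lower), 38.2% with cyclic loess (26 higher, 42 lower), 40.3% with batch as a fixed term (29 higher, 43 lower) and 13.3% in the authors' deposited table (10 higher, 65 lower, of 5045 probes). The median difference of all probes was 0.01, and 0.17 with scaling to the 75th percentile.

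Of the receptor probes 3 were called, all of Cd6. The count was 1 in batch 3 alone and 1 with no detection filter (probe 1170246 in each). It was 0 by limma when detection on all 8 arrays was required, a filter that left 4 receptor probes and none of Cd6. Of the 4, 3 had an unadjusted limma p under 0.05, as had 1552 of all 10390 probes under that filter. When 1 animal was left out the count of receptor probes called was 1 to 6. Without BALBc replicate 3 Cd2, Cd27 probe 990376, Lag3 and Thy1 changed sign: leaving out 1 animal gave −1.33 to 0.77 for Cd2, −0.87 to 0.42 for the Cd27 probe, −1.06 to 0.28 for Lag3 and −1.38 to 0.071 for Thy1, the lowest without SKG replicate 6 and the highest without BALBc replicate 3. In each of the other alternatives run, every kept receptor probe that was tested stayed lower in SKG. Among the 136 kept probes of the partner and marker lists 3 were called, and the count was 23 with no batch term, 0 in batch 3 alone (58 at an unadjusted p under 0.05) and 0 to 51 when 1 animal was left out (0 without SKG replicates 4 or 7 or BALBc replicate 2, 1 without SKG replicate 8 or BALBc replicate 1, 30 without SKG replicate 6 and 51 without BALBc replicate 3). Without BALBc replicate 3 the 51 list calls (40 lower, 11 higher) stood beside 5209 of all 13775 kept probes (2256 lower, 2953 higher), a similar share. Without SKG replicate 6 the 30 list calls stood beside 789 of all kept probes, and with no batch term the 23 stood beside 701. The cause of these changes in the counts was not tested. Depth of signal over background limited what could be measured of Cd28, Cd7, Cd96 and Cd6 in SKG, where a value at the floor gives only a bound.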

Other observations

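Profiles most like those of the receptors were sought among all kept probes by the root mean square difference of log2 values centred on each probe's mean over the 8 arrays. For Cd6 the nearest were Cd8b1 (0.453), which encodes part of CD8, Vat1 (0.496) and Arl2bp (0.507), set against a spread of Cd6 itself of 1.33. For Cd27 they were Arhgdib (0.184), Coro1a (0.235) and Kcnab2 (0.245), where Coro1a encodes an actin-binding protein of leukocytes and the spread of Cd27 was 0.796. For Thy1 they were Cd84 (0.166), Akna (0.173) and Pdpn (0.197), and for Lag3 Hs3st3a1 (0.107), Cd44 (0.12) and Nckap1l (0.14). For Cd160 they were Nlrc3 (0.133), Klhdc4 (0.183) and Dennd1c (0.194), and for Cd2 Sncg (0.245), Cenps (0.245) and Cpxm1 (0.26). For Cd7 they were Pygm (0.114), Bop1 (0.153) and Foxs1 (0.16), with a spread of Cd7 of 0.391. For Cd96 they were Adck5 (0.0753), Mgat5 (0.0933) and Src (0.0947), with a spread of Cd96 of 0.208.

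Of the natural killer and innate lymphoid markers, Nkg7, a granule protein of cytotoxic lymphocytes, averaged 6.27 ± 0.38 in SKG (SD, n = 5) and 6.91 ± 1.37 in BALBc (SD, n = 3), and differed by −1.58 (SE 0.47, limma adjusted p = 0.184), with −2.18 within batch 3 and 0.13 against batch 2.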
